A study of Mus musculus with 6 samples.

Results

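The genes described here are the serpins, the cystatins and the other protease inhibitors measured in mouse embryonic fibroblasts with and without Ing1. They were chosen by symbol: every transcript probe annotated to a single gene whose name begins with Serpin, Ctla2, Spink, Wfdc or Tfpi, or with Cst followed by a letter or digit, together with A2m, Pzp, Slpi, Expi and Reck. The rule found 98 probes of 91 genes, out of 34967 transcript probes and 18069 singly annotated genes. By family, 86 of the 91 are protease inhibitors or their close relatives. The other 5 were caught by name alone, since Cstf1, Cstf2, Cstf2t and Cstf3 belong to the cleavage stimulation factor of messenger RNA 3′ ends and Cstad is a gene of activated T cells.

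The study measured total RNA of 6 cultures on single-colour CodeLink whole-genome arrays, 1 array per culture. The Ing1-deficient group held 3 cultures, named C4, C3 and B1, in which a gene trap cassette inserted into the Ing1 locus inactivates it. The wild-type group held 3 cultures of littermates, named H2, H3 and I2. All were early-passage primary fibroblasts, each prepared from its own embryo, with no treatment named, and the comparison asks which genes depend on Ing1, a reader of histone marks. The age and sex of the embryos, the strain, and whether the trap leaves any Ing1 product were not given in the sources used here.

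Values are normalized intensities, in which 1 is the median transcript probe of that array. The scanner software gave a good flag to between 55.5% and 62.1% of transcript probes per array. The Ing1 probe read 1.38, 0.93 and 1.39 in the deficient cultures, against 11.7, 11.4 and 11.1 in the wild-type cultures, a log2 difference of -3.23 ± 0.19 (SE, limma adjusted p = 0.000286). The position of that probe relative to the cassette is not given in the sources used here. Of 11 fibroblast marker probes all 11 were tested. At a limma adjusted p under 0.05, 2 (Lum and Thy1) were higher in the deficient cultures, which is 18.2%, against 6.57% of all tested probes. At an unadjusted p under 0.05 were 6, or 54.5%, against 26.2% of all. They include a Pdgfra probe that was lower (-0.70), while the gene's other probe was higher (0.93). The median log2 difference was 0.50, with summed levels of 780 to 826 in deficient and 705 to 799 in wild-type cultures.

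Protease inhibitors set where and for how long a protease can cut. Inhibitory serpins offer a flexible loop as bait, are cut, and trap the protease in a covalent complex, whereas cystatins block the cleft of papain-like cysteine proteases reversibly, and alpha-2-macroglobulin closes around almost any protease that cuts its bait region. Kunitz, Kazal and whey acidic protein (WAP) domains are small disulfide-bonded folds that plug the active site of serine proteases. In fibroblasts these proteins are known for controlling plasmin, cathepsins and matrix turnover, and some serpins inhibit nothing, Serpinh1 being a chaperone of collagen.

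The upstream sequences of the called genes whose 250 bases before the start hold the motif TGANTCA are shown, namely Ctla2a, Tfpi2 and Serpinb8. This pattern leaves its centre base free and includes sites bound by AP-1 factors, whose binding here was not tested. The sequences are from RefSeq on GRCm38.p6, and each is printed 5′ to 3′ on the strand of its gene with the motif in capitals. Where several starts were listed (2 for Ctla2a, 3 for Tfpi2), the most downstream was taken.
Ctla2a, chr13:60936567-60936816, minus strand: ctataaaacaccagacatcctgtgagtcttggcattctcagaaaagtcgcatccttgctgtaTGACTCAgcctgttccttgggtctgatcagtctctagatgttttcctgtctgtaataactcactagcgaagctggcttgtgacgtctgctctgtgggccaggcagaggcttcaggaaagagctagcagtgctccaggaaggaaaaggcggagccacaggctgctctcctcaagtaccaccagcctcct
Tfpi2, chr6:3968376-3968625, minus strand: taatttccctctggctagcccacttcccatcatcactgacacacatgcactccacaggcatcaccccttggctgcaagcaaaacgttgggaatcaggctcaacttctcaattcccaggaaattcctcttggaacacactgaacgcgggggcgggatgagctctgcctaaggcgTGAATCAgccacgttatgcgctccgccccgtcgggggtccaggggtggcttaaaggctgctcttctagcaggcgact
Serpinb8, chr1:107589756-107590005, plus strand: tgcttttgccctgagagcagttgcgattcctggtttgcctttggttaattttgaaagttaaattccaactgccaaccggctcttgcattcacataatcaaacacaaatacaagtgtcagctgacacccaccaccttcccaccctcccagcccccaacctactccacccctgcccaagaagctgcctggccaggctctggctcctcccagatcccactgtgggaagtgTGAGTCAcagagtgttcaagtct
The match was TGACTCA in Ctla2a, beginning 188 bases before the start. It was TGAATCA in Tfpi2, 77 bases before the start, and TGAGTCA in Serpinb8, 23 bases before the start. Serpini2 and Wfdc2, the other called genes with a window, held 0 matches each. TGANTCA reads the same on both strands, and 6.75% of all 32851 windows, from 27025 genes, held it. The motif was chosen after the windows had been read, and the matches occur in genes that were higher and in 1 that was lower. TTCNNNGAA, the class bound by STAT factors, was in the Ctla2a window and in 7.02% of all windows. TATAAA, on either strand, was in the Ctla2a and Serpini2 windows and in 12.4% of all windows. Upstream CpG counts were 4 in Ctla2a, 11 in Tfpi2, 2 in Serpinb8, 1 in Serpini2 and 14 in Wfdc2, beside a median of 6 over all windows.

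Many of the probes gave too little signal to test. A probe was tested where 1 genotype or both had 3 good-flagged spots, which left 48 of the 98 probes, from 47 genes, while 38 of the others had no signal above background on any array. A tested probe could thus have passed through the genotype in which it is high. Among the 48, 3 were higher in the deficient cultures (A2m, Ctla2a and Tfpi2) and 3 were lower (Serpinb8, Serpini2 and Wfdc2) at a limma adjusted p under 0.05. That is 12.5% of the tested probes, against 6.57% of all 19575 tested probes on the arrays, where 4.94% were higher and 1.63% lower. An unadjusted p under 0.05 was reached by 29.2% of the tested probes, against 26.2% of all. The median log2 difference, deficient minus wild type, was 0.11, beside 0.02 over all tested probes, and 0.05 over the 44 tested probes of the genes that are inhibitors by family. The first of these medians was 0.06 without C3, 0.07 without I2, 0.04 with quantile normalization and 0.03 with normexp background correction.

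These counts, like those over all probes, depended on single cultures. Leaving out B1 left 0 higher and 0 lower in limma, with 12 probes at an unadjusted p under 0.05 beside 14 with every culture. Leaving out H2 or I2 left 1 higher and 0 lower in each case. Without C4 there were 3 higher and 0 lower, and without C3 there were 2 higher and 1 lower. Leaving out H3 gave 7 higher and 2 lower, the added probes being Serpina3f, Serpinb9, Serpinb1a and Cstf3. Leaving out C3 and H3 together, a choice made after seeing the data, gave 5 higher and 2 lower, Serpina3f and Cstf3 being the added ones. Calls over all probes moved likewise, from 1286 to 5 without B1, 24 without H2, 17 without I2, 52 without C4 and 379 without C3. They rose to 2726 without H3 and to 2152 without C3 and H3.

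**Figure D1:**
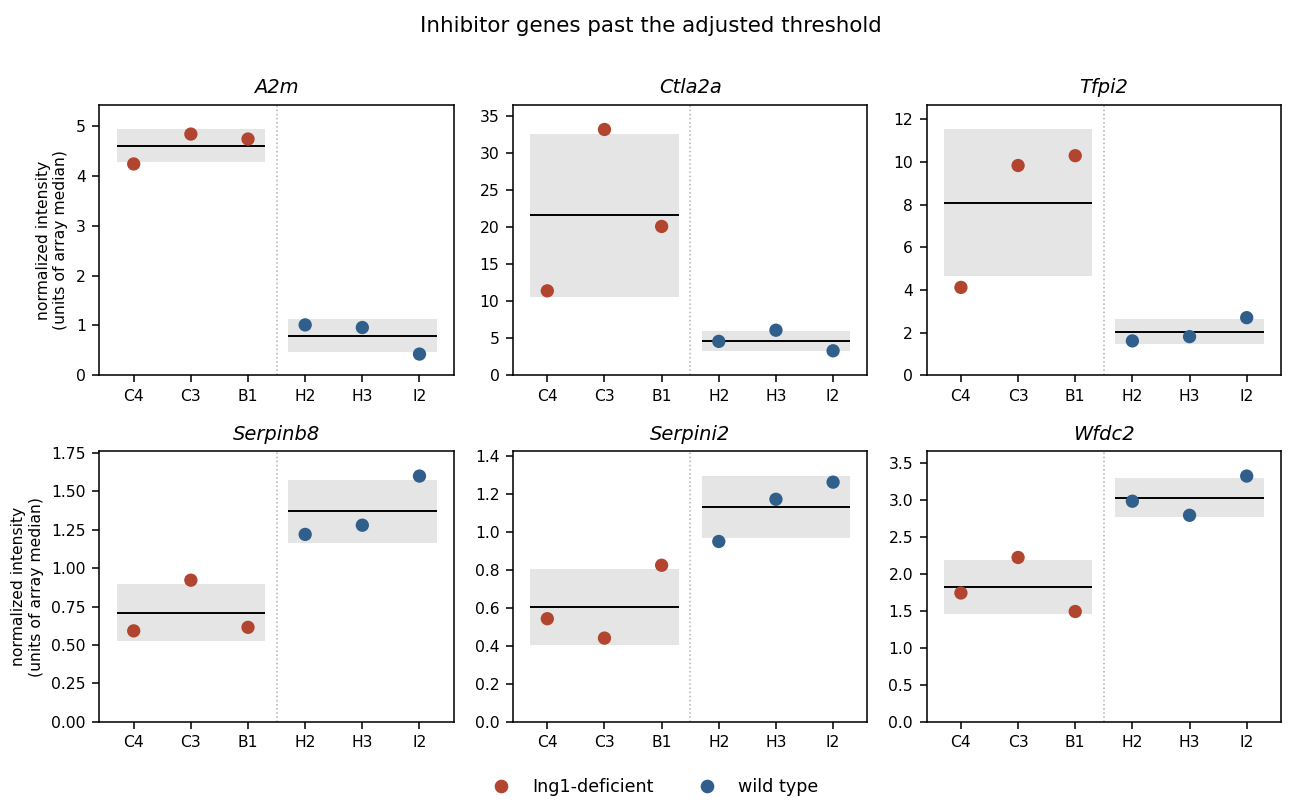
Normalized intensity (in units of the array median, y axis from 0) of the 6 called inhibitor genes in each culture, deficient (C4, C3, B1) left of wild type (H2, H3, I2). Points are single arrays, lines are means and grey bands 1 SD either side (n = 3). In each panel the deficient and wild-type points do not overlap.

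The largest difference was in A2m, which encodes alpha-2-macroglobulin. It read 4.24, 4.84 and 4.74 in the deficient cultures, against 1.01, 0.957 and 0.424 in the wild-type cultures. The deficient values lay close together and all wild-type values lay far below them, with a good flag on 2 of the 3 wild-type arrays and a low one in I2. Means were 4.61 ± 0.322 in deficient and 0.796 ± 0.323 in wild-type cultures (SD, n = 3 each). The log2 difference was 2.49 ± 0.23 (SE), or 5.62-fold, with a limma adjusted p of 0.00459, and it kept its call in 5 of the 6 fits that left out a culture (adjusted p = 0.0583 without B1). Pzp, the pregnancy zone protein and close relative of A2m, could not be tested, since 1 spot of 6 had a good flag.

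Ctla2a encodes a mouse protein related to the propeptide of cathepsin L, which inhibits papain-like cysteine proteases. It read 11.4, 33.2 and 20.1 in the deficient cultures, against 4.57, 6.08 and 3.30 in the wild-type cultures. The groups did not overlap, and the deficient cultures spread widely among themselves, C3 being highest and C4 lowest. The log2 difference was 2.12 ± 0.37 (SE), 4.36-fold, with a limma adjusted p of 0.0252, which was lost without B1 (0.0944), H2 (0.0893) or I2 (0.11).

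Tfpi2 encodes a Kunitz inhibitor that is secreted into the matrix and blocks plasmin and trypsin. It read 4.12, 9.84 and 10.3 in the deficient cultures, against 1.61, 1.81 and 2.70 in the wild-type cultures. The lowest deficient culture, C4, was nearer to the wild-type values than to C3 and B1. The log2 difference was 1.91 ± 0.35 (SE), 3.76-fold, with a limma adjusted p of 0.0272, and it passed in 2 of the 6 fits that left out a culture. Its relative Tfpi, the inhibitor of the tissue factor pathway of coagulation, read 3.51, 4.04 and 3.97 in deficient cultures, against 3.42, 3.44 and 3.39 in wild-type cultures. Those groups also did not overlap, but by little, and the difference of 0.17 ± 0.14 did not pass (limma adjusted p = 0.509).

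Markers of macrophages moved in the same direction as these 3 genes. Of 8 tested macrophage probes 3 were called, all higher (Mrc1, C1qa and C1qb, the last with a log2 difference of 1.85 ± 0.37). That is 37.5%, against 4.94% called higher among all tested probes. At an unadjusted p under 0.05 were 7, or 87.5%, against 26.2% of all, and the median was 1.35. The summed level of the 12 macrophage probes was 53.3, 162 and 85.3 in C4, C3 and B1, against 55.8, 36.5 and 24.1 in H2, H3 and I2, so that C4 was no higher than H2. Among the deficient cultures this sum, Ctla2a and A2m all ran C3 above B1 above C4, A2m only from 4.24 to 4.84. Tfpi2 ran B1 above C3 above C4. Among the wild-type cultures the sum and A2m ran H2 above H3 above I2. Ctla2a ran H3 above H2 above I2 there, and Tfpi2 ran I2 above H3 above H2. Of the defining markers, Ptprc and Fcgr1 had no good spot on any array and Itgam had 1, in C3. Adgre1 had good spots in C3 and B1 and, at 0.614, 1.27 and 0.969 in deficient cultures against 0.16, 0.489 and 0.109 in wild-type cultures, did not overlap between genotypes. The part of these cells in the inhibitor differences was not tested, and in bulk RNA more cells of a type and more RNA per cell cannot be told apart. The liver marker list, which bears on A2m and the clade A serpins as liver-secreted proteins, had 0 of 6 tested probes called (1 at an unadjusted p under 0.05) and a median of -0.57, with summed levels of 9.0 to 26.4 in deficient and 8.98 to 40.0 in wild-type cultures and no good spot for Apob, Apoh or Hnf4a.

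**Figure D2:**
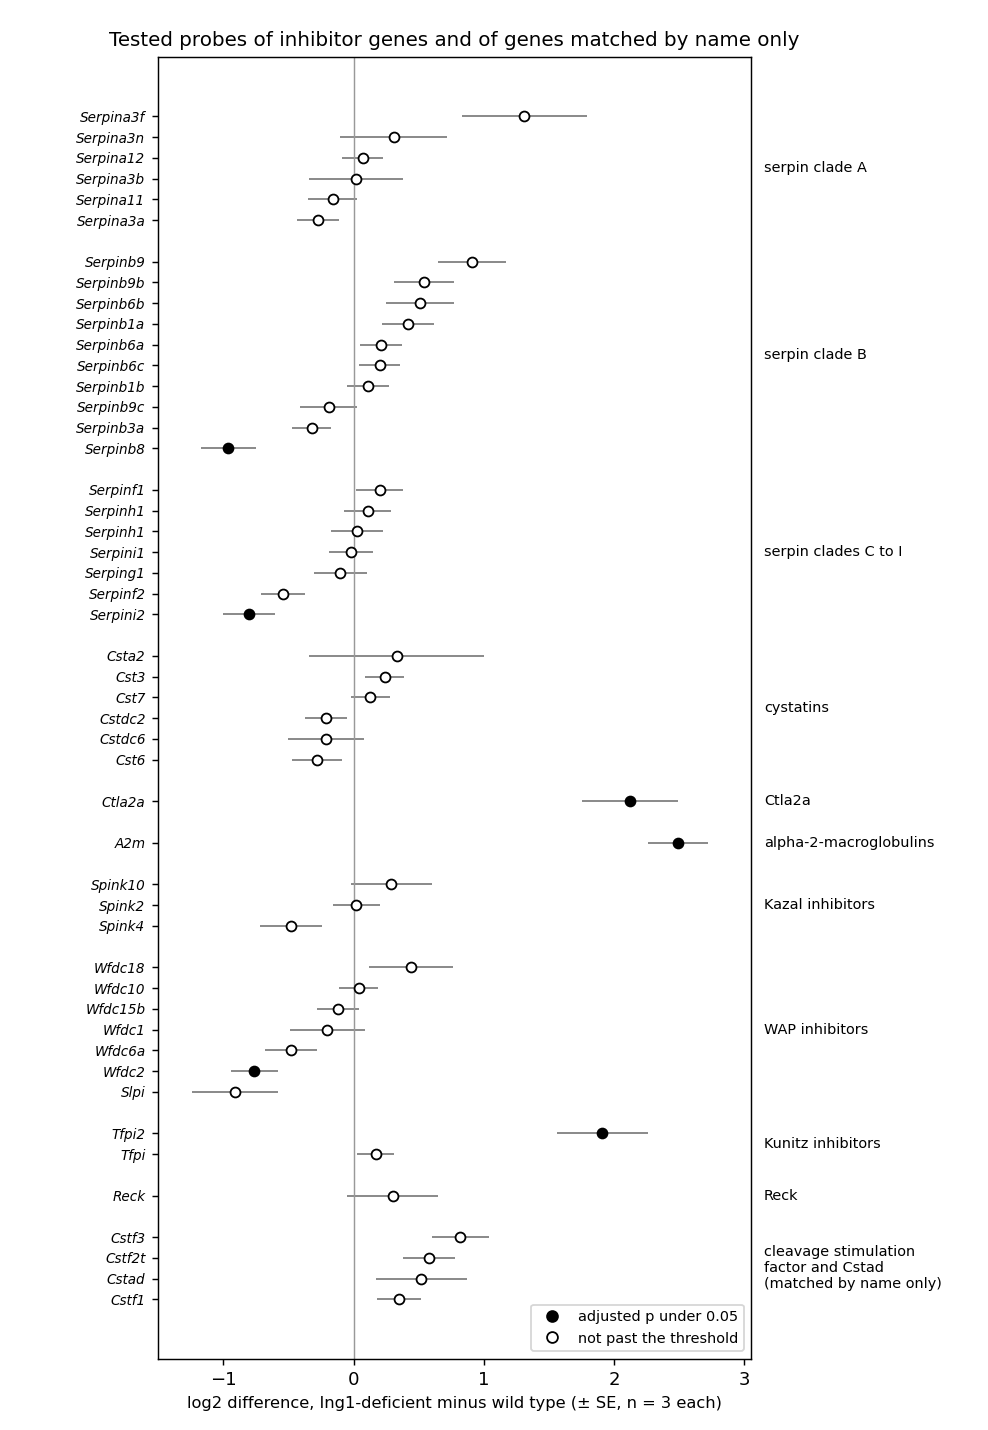
Log2 difference, deficient minus wild type (x axis), with its standard error (bars, n = 3 each), for the 48 tested probes grouped by family (y axis). Filled points are past the adjusted threshold; the filled points are A2m, Ctla2a and Tfpi2 on the right and Serpinb8, Serpini2 and Wfdc2 on the left.

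Of 50 serpin probes of 44 genes, 23 were tested and 2 were called, both lower, and the median difference was 0.07. The called share was 8.7%, against 6.57% of all tested probes. An unadjusted p under 0.05 was reached by 26.1% of the tested serpin probes, against 26.2% of all. Clade A, the clade of antitrypsin and antichymotrypsin, had 6 tested probes, 0 limma calls (1 at an unadjusted p under 0.05) and a median of 0.04. Clade B, whose members mostly act inside cells, had 10 tested probes, 1 lower call and a median of 0.20. Clades C to I had 7 tested probes, 1 lower call and a median of -0.02. When 1 culture at a time was left out, the medians ranged from -0.07 to 0.20 in clade A, from 0.17 to 0.28 in clade B and from -0.12 to 0.05 in clades C to I. With quantile normalization the medians were -0.05, 0.09 and -0.09 in that order, and with normexp background correction -0.02, 0.10 and -0.06.

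Serpinb8 is an intracellular serpin that in human inhibits furin. It read 0.592, 0.922 and 0.615 in the deficient cultures, against 1.22, 1.28 and 1.60 in the wild-type cultures. Every deficient value was below every wild-type value, all lay near the array median, and C4 had a low flag. The log2 difference was -0.96 ± 0.21 (SE), with wild type 1.95-fold higher and a limma adjusted p of 0.0354, and it passed in 2 of the 6 fits that left out a culture. With the floor under dim values doubled, the difference was -0.25 (adjusted p = 0.295). Serpinb8 lies in a row of clade B genes, next to Serpinb10 and 1 protein-coding gene away from Serpinb2, an inhibitor of urokinase.

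Serpinb9, the intracellular inhibitor of granzyme B, had the highest difference in clade B without a call. Its tested probe read 1.30, 2.03 and 1.69 in the deficient cultures, against 0.603, 1.14 and 0.979 in the wild-type cultures. The groups did not overlap, and the difference was 0.91 ± 0.26 (limma adjusted p = 0.0695). It passed in 1 of the 6 fits that left out a culture, the one without H3 (adjusted p = 0.0326). The highest adjusted p among those fits was 0.188, without H2. The other Serpinb9 probe, with good flags on 2 deficient arrays and 1 wild-type array, was not tested and read 1.26, 1.53 and 0.883 in deficient cultures, against -0.0557, 0.754 and 0.31 in wild-type cultures. Serpinb9b, its immediate neighbour in the genome, read 2.60, 2.18 and 1.55 in deficient cultures, against 1.29, 1.81 and 1.22 in wild-type cultures, with B1 below H3. Its difference was 0.54 ± 0.23 (limma adjusted p = 0.179). Whether the probes of such close relatives share signal was not tested.

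Serpinb6a is an intracellular clade B serpin with 2 probes. The tested one read 50.5, 49.4 and 44.0 in the deficient cultures, against 44.1, 36.8 and 44.1 in the wild-type cultures. The ranges overlapped, and the difference was 0.21 ± 0.16 (limma adjusted p = 0.44), while the gene's other probe had no good spot on any array. Serpinb1a, an inhibitor of neutrophil elastase, read 7.01, 6.65 and 6.63 in deficient cultures, against 4.31, 6.89 and 4.33 in wild-type cultures. Here H3 lay among the deficient values, and the difference of 0.42 ± 0.20 did not pass (limma adjusted p = 0.228). It passed in 1 of the 6 fits that left out a culture, the one without H3 (adjusted p = 0.0319). The highest adjusted p among those fits was 0.525, without I2.

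In clades C to I the call was Serpini2, a secreted clade I serpin described in human pancreas. It read 0.542, 0.44 and 0.823 in the deficient cultures, against 0.948, 1.17 and 1.26 in the wild-type cultures. C4 and C3 had low flags, so the deficient level rests on B1 and the background of the other arrays. The log2 difference was -0.80 ± 0.20 (SE), with wild type 1.74-fold higher and a limma adjusted p of 0.0481, which was lost in every fit that left out a culture. With the floor doubled, the difference was -0.06 (adjusted p = 0.5). Serpini1, the brain inhibitor of tissue plasminogen activator and 2 protein-coding genes from Serpini2, had a difference of -0.02 ± 0.17 by its tested probe, and no good spot by its other probe.

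Serpinf2, the plasma inhibitor of plasmin, read 1.02, 0.918 and 1.06 in the deficient cultures, against 1.36, 1.78 and 1.28 in the wild-type cultures. The groups did not overlap, and the difference was -0.54 ± 0.17 (limma adjusted p = 0.0923). Its direct neighbour Serpinf1, a secreted serpin that inhibits no protease and restrains blood vessel growth, read 57.1, 51.1 and 45.6 in deficient cultures, against 51.9, 36.2 and 46.3 in wild-type cultures. Its ranges overlapped, with a difference of 0.20 ± 0.18 (limma adjusted p = 0.521).

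Serpinh1, the collagen chaperone, had 2 tested probes. One read 166, 143 and 132 in the deficient cultures, against 186, 119 and 135 in the wild-type cultures. The other read 98.5, 97.0 and 97.6 in deficient cultures, against 101, 70.1 and 104 in wild-type cultures. On both probes the wild-type range enclosed the deficient one, and the differences were 0.03 ± 0.20 and 0.11 ± 0.18, and the sign of the first turned under other normalizations (-0.06 with cyclic loess), while that of the second turned without H3 (-0.07). Serping1, the inhibitor of complement C1, read 14.1, 17.4 and 16.6 in deficient cultures, against 16, 22.5 and 14.0 in wild-type cultures, a difference of -0.10 ± 0.20 that turned to 0.09 without H3.

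**Figure D3:**
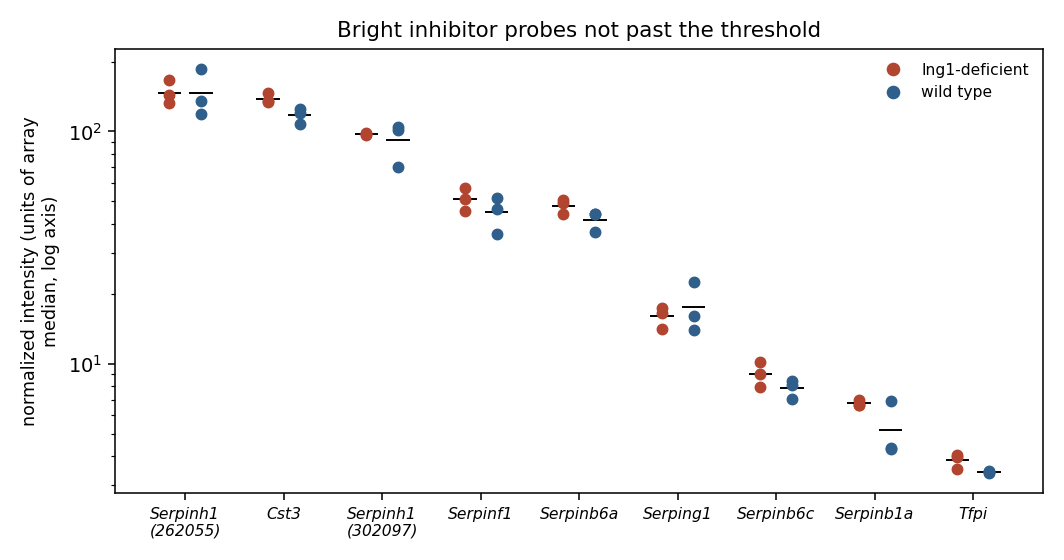
Normalized intensity (in units of the array median, log axis) of 9 bright probes that were not called, in deficient (left of each pair) and wild-type (right) cultures; points are arrays and short lines means (n = 3). Levels of different probes are not comparable, the genotypes overlap for every probe except those of Cst3 and Tfpi, and the numbers under Serpinh1 name its probes.

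Serpina3n and Serpina3b, clade A genes of the mouse antichymotrypsin cluster, secreted proteins of the acute phase family, differed more among cultures than between genotypes. Serpina3n read 13.3, 26.4 and 16.1 in the deficient cultures, against 8.74, 28.0 and 12 in the wild-type cultures. Serpina3b read 3.40, 7.22 and 4.50 in deficient cultures, against 3.57, 8.18 and 3.66 in wild-type cultures. In both genes C3 was the highest deficient culture and H3 the highest wild-type culture, and the genotypes overlapped, with differences of 0.31 ± 0.41 and 0.02 ± 0.36.

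Serpina3f, which lies 1 protein-coding gene from Serpina3b and 5 from Serpina3n, had a different pattern. It read 14.7, 16.2 and 17.6 in the deficient cultures, against 3.29, 16.4 and 5.07 in the wild-type cultures. The deficient cultures were alike, H3 lay among them, and H2 and I2 lay well below. The difference was 1.31 ± 0.48 (limma adjusted p = 0.126). It passed in 1 of the 6 fits that left out a culture, at 1.98 without H3 (adjusted p = 0.00358). Without H2 it was 0.82 (adjusted p = 0.345) and without I2 it was 1.13 (adjusted p = 0.319). Serpina3a read 3.65, 3.79 and 3.01 in deficient cultures, against 4.44, 4.15 and 3.93 in wild-type cultures, so that its groups did not overlap in the other direction, with a difference of -0.27 ± 0.16 (limma adjusted p = 0.322).

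The arrays' likeness over the 48 tested probes showed the same culture. Pearson correlations of log2 values, described across probes that share their arrays, were 0.969 to 0.983 among the deficient cultures and 0.930 to 0.953 among the wild-type cultures. H3 correlated at 0.934 to 0.945 with the deficient cultures, within the range of its own group, whereas H2 and I2 correlated at 0.875 to 0.925 with them. Among acute phase and STAT3 targets 14 probes were tested, 1 was higher (Il6, at 1.55 ± 0.32) and 1 lower (a probe of Il6st, at -3.89 ± 0.78), with a median of 0.15. The called share was 14.3%, against 6.57% of all tested probes. The other tested Il6st probes differed by -0.02 and 0.08. Il6 read 6.89, 7.21 and 8.03 in deficient cultures, against 2.03, 4.54 and 1.72 in wild-type cultures, where H3 was again the highest wild-type culture.

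**Figure D4:**
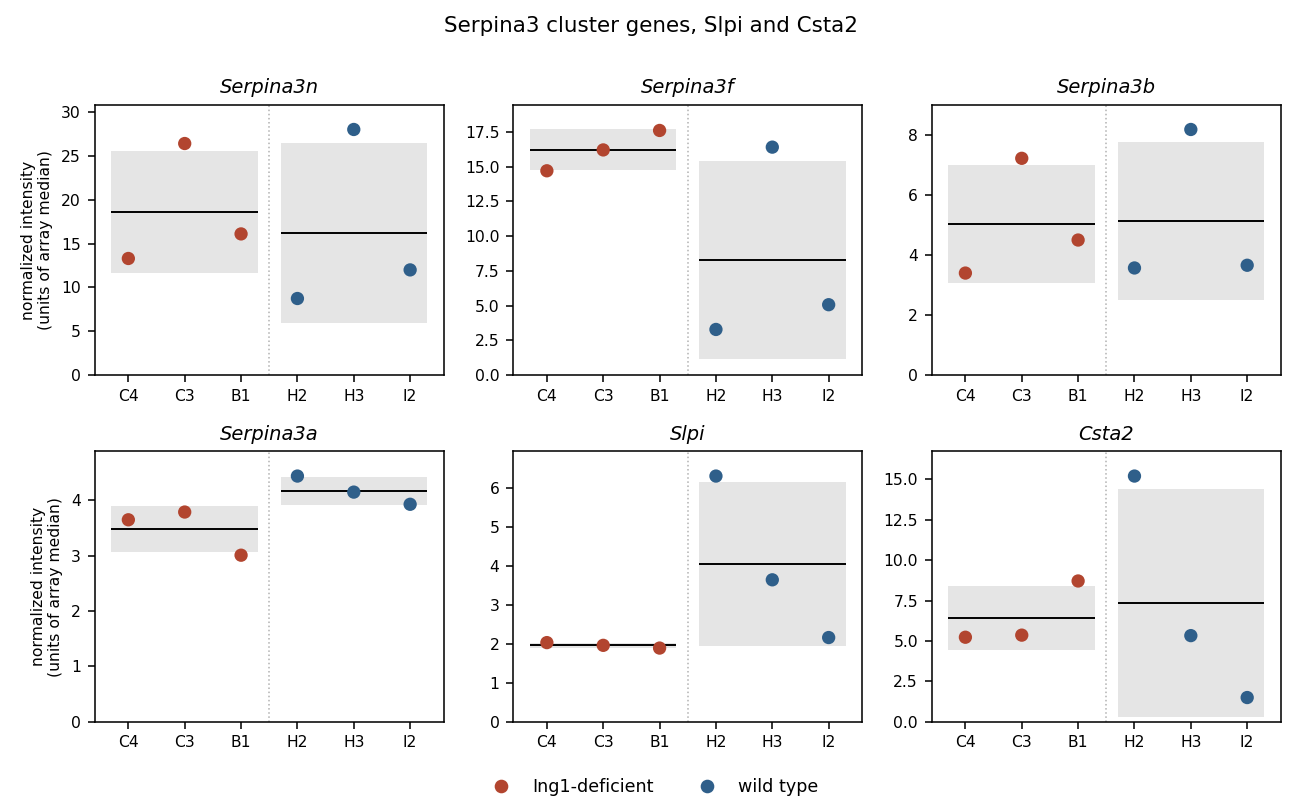
Normalized intensity (in units of the array median, y axis from 0) of 4 Serpina3 genes, Slpi and Csta2 in each culture, deficient (C4, C3, B1) left of wild type (H2, H3, I2); points are arrays, lines means, grey bands 1 SD either side (n = 3). H3 stands apart from H2 and I2 in Serpina3n, Serpina3f and Serpina3b, and H2 is highest in Slpi and Csta2.

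The cystatins had 6 tested probes of 13, 0 limma calls, 0 at an unadjusted p under 0.05, and a median of -0.04, within -0.28 to 0.33. Cst3, the secreted inhibitor of cathepsins, read 134, 146 and 135 in the deficient cultures, against 125, 120 and 108 in the wild-type cultures. All deficient values were above all wild-type values, but the gap was small and the difference of 0.24 ± 0.15 did not pass (limma adjusted p = 0.34). Csta2, an intracellular stefin, read 5.23, 5.36 and 8.71 in deficient cultures, against 15.2, 5.33 and 1.5 in wild-type cultures. Its wild-type cultures spanned the deficient range on both sides, and the difference of 0.33 ± 0.67 had the largest standard error of the 48 tested probes. Cst6 and Cst7, inhibitors of legumain and cathepsins, had differences of -0.28 ± 0.19 and 0.13 ± 0.15. No cystatin thus passed where Ctla2a, the other inhibitor of cysteine proteases, did, and that contrast between genes was not tested.

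Among WAP proteins 7 of 14 probes were tested and 1 was called, lower in the deficient cultures (14.3%, against 6.57% of all tested probes). The median was -0.20. That median was -0.42 without H3, -0.11 without H2, -0.09 without I2 and -0.00 with the floor doubled. Wfdc2, a secreted WAP protein of epithelia, read 1.74, 2.22 and 1.49 in the deficient cultures, against 2.98, 2.79 and 3.32 in the wild-type cultures. All 6 spots had good flags and the groups did not overlap. The log2 difference was -0.76 ± 0.18 (SE), with wild type 1.69-fold higher and a limma adjusted p of 0.0452, and it passed in 1 of the 6 fits that left out a culture. Epithelial markers gave 0 limma calls among 3 tested probes and 0 at an unadjusted p under 0.05, with summed levels of 4.84 to 7.55 in deficient and 5.36 to 7.15 in wild-type cultures.

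Slpi, the secreted inhibitor of neutrophil elastase that lies 7 protein-coding genes from Wfdc2, read 2.03, 1.96 and 1.89 in the deficient cultures, against 6.30, 3.64 and 2.16 in the wild-type cultures. The deficient cultures were nearly identical, and the wild-type cultures spread from just above them to H2. The difference was -0.91 ± 0.33 (limma adjusted p = 0.12). Wfdc6a, 1 protein-coding gene from Wfdc2, was dim at 0.844, 0.51 and 0.881 in deficient cultures, against 1.02, 1.14 and 0.987 in wild-type cultures, with a difference of -0.48 ± 0.20 (limma adjusted p = 0.162). Wfdc18, also called Expi, an inhibitor described in mouse mammary gland, read 2.01, 2.40 and 2.09 in deficient cultures, against 0.903, 2.48 and 1.80 in wild-type cultures, a difference of 0.44 ± 0.32 with overlap.

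Of the tested probes, 9 had every deficient value above every wild-type value and 8 the reverse, against 20.1% and 11.3% of all tested probes in those directions. The Kazal inhibitors, known for blocking trypsin-like proteases, had 3 tested probes of 10, 0 limma calls, 0 at an unadjusted p under 0.05, and a median of 0.02. Among them, Spink2 differed by 0.02 ± 0.18. Reck, the membrane-anchored inhibitor of matrix metalloproteases, read 1.18, 2.11 and 0.988 in deficient cultures, against 0.78, 1.75 and 0.961 in wild-type cultures. Again C3 and H3 were the highest of their groups, and the difference was 0.30 ± 0.35.

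The 5 genes caught by name alone had 4 tested probes, with 0 limma calls and a median of 0.55. Of the 4, 2 were at an unadjusted p under 0.05, beside 26.2% of all tested probes. All deficient values lay above all wild-type values in 3 of the 4, beside 20.1% of all tested probes. Cstf3 read 6.42, 4.73 and 4.65 in the deficient cultures, against 2.32, 3.88 and 2.86 in the wild-type cultures, a difference of 0.82 ± 0.22 (limma adjusted p = 0.0614). Cstf2t read 7.56, 5.55 and 6.02 in deficient cultures, against 3.31, 5.06 and 4.55 in wild-type cultures, a difference of 0.58 ± 0.20 (limma adjusted p = 0.116). Cstf1 differed by 0.35 ± 0.17. None of these is an inhibitor, and without them the counts of called inhibitor probes were still 3 higher and 3 lower.

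Proteases that the inhibitors meet were listed separately. The called shares were 7.14% of tested cathepsin-type probes and 11.1% of tested metalloprotease probes, against 6.57% of all tested probes. Of 14 tested cathepsin-type probes 1 was called, a probe of Ctsc, the activator of granule proteases, higher by 0.95 ± 0.20 (limma adjusted p = 0.0326). The other tested Ctsc probes differed by 0.43 and -0.05, and the list's median was 0.04. Of 18 tested metalloprotease probes 2 were higher, the stromelysin Mmp3 at 2.31 ± 0.55 and the gelatinase Mmp9 at 1.15 ± 0.27 (limma adjusted p = 0.0439 and 0.0419), and the median was 0.21. The list for plasminogen activation and coagulation had 15 tested probes, 0 limma calls (3 at an unadjusted p under 0.05) and a median of 0.11. Other inhibitors outside the rule, such as the Timp genes, gave 0 limma calls among 10 tested probes (2 at an unadjusted p under 0.05), with a median of -0.06. Of 18 probes for collagens and targets of TGF-beta, the clients of Serpinh1 among them, 1 was higher (Tgfbi, at 0.95 ± 0.16), with a median of 0.18. The called share was 5.56% there.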

How the data were processed

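Total RNA of 6 primary fibroblast cultures was measured on CodeLink arrays of 36227 spots, of which 1260 were controls. Per the file headers, the authors used CodeLink Expression Analysis 4.1.0.29054 to read the arrays. The deposited intensity equalled, within 0.002, each spot's mean less its local background median, scaled to the array's median transcript probe. The series table held the same deposited intensities in 217362 of 217362 cells. The deposited scanner columns write these intensities with decimal commas (recorded here as the unit other), which were read as numbers. Gene symbols came from the platform annotation: it named 1 gene for 21615 probes, several for 681 and no gene for 12671. Left out were 4 probes shared among several genes whose names all fit the rule.

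From these values, intensities under a floor of 0.5702 were raised to it and log2 was taken, which understates changes of dim probes. Probes whose 3 spots were flagged good in 1 genotype or both were tested with limma 3.58.1 in R 4.3.3 (lmFit and eBayes, two-sided, no covariates), adjusted by Benjamini-Hochberg over all 19575 tested probes at a threshold of 0.05. The number of arrays limits precision. A fold is 2 to the power of the log2 difference. The fit was tested on simulated data. Alternatives changed the floor, filter, background correction, normalization and weights, blocked on the leading letter of the culture names, left out cultures, or used the methods' t-test.

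Named were the genes past the threshold or at an unadjusted p under 0.05, the gene with the highest probe intensity in each family (used for naming only, since levels of different probes are not comparable), and a set of well-known inhibitors whatever their values. In the lists of other genes, those past the threshold were named. Genes named beyond this (Serpina3a, Serpina3b, Serpinb1a, Serpinb2, Serpini1, Cst6, Cst7, Csta2 and Cstf2) were chosen after their values were seen. The members and lists were chosen with earlier results of these data known.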

Additional observations from a re-analysis of the deposited data

Results flagged for a closer look

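Probes of 4 genes failed the filter on flags, so they were not tested. Each had at least 1 good deficient spot and every deficient value above every wild-type value. They were picked for that order, which 20.1% of all tested probes had. Its share among untested probes was not counted. Serpinb2, the inhibitor of urokinase, averaged 0.873 in deficient cultures. It read 0.538, 1.21 and 0.868 there, against 0.363, 0.197 and 0.168 in wild-type cultures. Good flags were on 2 deficient arrays and 0 wild-type arrays, and the deficient level was 2.04-fold that of wild type, computed as below. The other Serpinb9 probe averaged 1.22 in deficient cultures, in the direction of the tested probe. Pzp averaged 0.495 in deficient cultures, with 0.286, 0.583 and 0.617 against 0.0716, 0.141 and 0.152 in wild-type cultures. Its spot was good on 1 deficient array, and the ratio was 1.16. Cstf2 averaged 0.959 over the 2 deficient arrays where it was measured, C4 being masked, with 1.17 and 0.745 against 0.509, 0.512 and 0.319 in wild-type cultures, and was at least 2.06-fold higher. The ratios set the deficient mean against, for each wild-type array, the probe's own value or the dimmest good probe, whichever was higher. The deficient means of Serpinb2 and Pzp include spots with low flags, so their ratios are not lower bounds. These differences were not tested.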

How the results depend on the processing

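Of the 48 tested probes, 3 were called higher and 3 lower. Higher and lower calls became 8 and 4 with array weights, 1 and 0 with a floor of 0.01 or with the floor doubled, 0 and 0 with no filter on flags or with the methods' t-test once adjusted by Benjamini-Hochberg (5 and 5 unadjusted), 2 and 0 with normexp, 3 and 1 with cyclic loess, and 2 and 1 with good flags on all 6 arrays. With C3 and H3 left out together they were 5 and 2. Leaving out 1 culture gave 0 to 7 higher and 0 to 2 lower. With the leading letter of the culture names as a random block they were 21 and 14, at an estimated correlation of -0.886 and with 12901 of all probes called. No paired analysis was possible because the culture names do not say which cultures form a pair. Over all probes, calls were 1286 (75.2% higher), 4720 (61.0%) with array weights, 739 (60.8%) with quantile normalization, 766 (65.5%) with loess and 576 with normexp. They were 275 with the small floor, 191 with the doubled one, 20 with no filter, and 7 by the adjusted methods' t-test. Leaving out 1 culture gave from 5 calls, without B1, to 2726, without H3. The 6 called genes kept their direction in every alternative that gave them a value. Of the 48 tested probes 17, none of them called, took both signs over the alternatives other than the letter block and the added one. Among those described, leaving out 1 culture gave -0.04 to 0.80 for Serpina3n, -0.28 to 0.41 for Serpina3b, -0.02 to 0.64 for Reck, -0.25 to 0.09 for Serping1, -0.11 to 0.21 for the brighter Serpinh1 probe, -0.07 to 0.21 for the other, -0.12 to 0.06 for Serpini1, -0.53 to 1.14 for Csta2 and -0.10 to 0.17 for Spink2. Without C3 and H3, Serping1 was 0.03 and the Serpinh1 probes -0.10 and -0.07. With array weights Serping1 was 0.14 and the second Serpinh1 probe -0.03. The brighter one was -0.06 with loess and normexp and -0.03 with quantile normalization, Serpina3b -0.03 with loess and normexp and -0.07 with quantile, and Spink2 -0.01 with normexp and quantile. With the letter block Serpina3b was -0.10, Serpini1 0.12 and Csta2 -0.59. Family medians moved too: leaving out 1 culture gave -0.18 to 0.10 for cystatins and -0.10 to 0.17 for Kazal inhibitors. The causes were not tested. Dim probes limit Serpinb8, Serpini2 and A2m, whose values lay near background in 1 genotype.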
